A study of Mus musculus with 8 samples.

Results

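The 46 genes described here encode enzymes and carriers that carry glucose carbon from glucose-6-phosphate through pyruvate and the mitochondrial tricarboxylic acid (TCA) cycle, together with the shuttles that move reducing equivalents between cytosol and mitochondria. They were chosen by gene symbol from the 55421 rows of the deposited expression table. Where a symbol occurs more than once, the row with the highest mean was taken. The rule itself uses no measured difference, but the list was put together with earlier results of these data known. By role they comprise 12 glycolytic enzymes, 3 lactate dehydrogenases, 10 genes of mitochondrial pyruvate entry and oxidation, 12 TCA cycle genes and 9 genes of shuttles, cytosolic isocitrate oxidation and malic enzymes. The tissue was the cardiac right ventricle of female mice at 9 to 10 months of age. Both groups were offspring of heterozygous parents of the Jackson Laboratory line B6.129S7(Cg)-Polgtm1Prol/J. The 4 WT mice (libraries A to D) carried no mutant allele and the 4 POLG mice (libraries E to H) were homozygous for Polg D257A. No treatment is named for either group. The allele is in the germ line and so acts in every tissue, blood-forming tissue included. RNA was selected by its poly(A) tail and sequenced, and each value is in FPKM, a fragment count scaled to transcript length and to the mapped fragments of the library. Each library came from 1 mouse, and its depth, read from the steps between low values, was roughly 13500000 to 22700000 fragments, lowest in WT C.

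POLG is the only DNA polymerase that copies the mitochondrial genome, and the D257A change removes its proofreading activity, so that mutations build up in mitochondrial DNA. All of the enzymes studied here are encoded in the nucleus. Glycolysis splits glucose into pyruvate in the cytosol, the pyruvate dehydrogenase complex turns pyruvate into acetyl-CoA inside the mitochondrion, and the TCA cycle oxidises acetyl-CoA to supply the respiratory chain with electrons. The heart draws most of its ATP from mitochondrial oxidation, mainly of fatty acids, and glycolysis and lactate use make up a smaller and adjustable part.

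The libraries differed in cell markers in ways that bear on all values below. All 8 ventricular cardiomyocyte markers were abundant and had a fitted difference below 0, of which Myh6 and Tnni3 passed the test, and their summed level was 12372 to 14683 FPKM in WT and 9231 to 11676 FPKM in POLG, without overlap. All 5 erythroid markers were higher in every POLG library and 4 of them passed the test, with sums of 889.8 to 1956 FPKM in WT and 2722 to 4885 FPKM in POLG. Atrial genes stood out in WT C and WT D, where the 5 markers summed to 263 and 636 FPKM against 38.3 and 52.6 FPKM in WT A and WT B, and to 67.5 to 199.99 FPKM in POLG. On average Nppa made up most of these sums, at 163 FPKM over the 8 libraries. Myl7 averaged 20.4, Myl4 3.87, Sln 2.27 and Bmp10 1.97 FPKM. Without WT C and WT D, only 1 of the 5 markers still averaged 1 FPKM, and it was higher in POLG (log2 difference 1.45). None of 4 endothelial, 4 fibroblast or 4 macrophage markers passed the test. The 7 adipocyte markers summed to at most 5.95 FPKM in any library. Of the 6 skeletal muscle markers, 2 reached the filter. Acta1 was higher in POLG (log2 difference 2.03), and Ckm was not called (-0.098). The others, Myh4, Myh1, Tnnt3 and Mylpf, averaged 0.0024, 0.0029, 0.083 and 0.16 FPKM. The part that these differences play in the results was not tested. In bulk tissue, fewer cells of a type and less RNA per cell cannot be told apart.

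Differences were small for most of the 46 genes, and the largest were decreases at pyruvate entry into mitochondrial metabolism. Pcx, pyruvate carboxylase, fell to 0.417 of its WT level, and Pdp2, a phosphatase that switches the pyruvate dehydrogenase complex on, fell to 0.475. No member row rose at an adjusted p under 0.05 in limma with Benjamini-Hochberg adjustment over the 10236 genes that averaged 1 FPKM or more. Summed with the FPKM of its near-identical copies, the glycolytic enzyme Gapdh was 1.30 times its WT level in POLG and passed the test. This sum was chosen after the data were seen, and the Gapdh row alone did not pass (limma adjusted p = 0.598). All 46 members reached the filter of 1 FPKM. Calls among them thus numbered 2 of 46, or 4.35%, both lower, where the same rule called 2.81% of all genes tested (0.694% higher and 2.12% lower). Scaling moved this balance: 71 genes were called higher and 217 lower on FPKM as deposited, 129 and 120 after median ratio scaling, and 128 and 140 after quantile normalization.

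The 4 WT and 4 POLG values did not overlap for 14 of the 46 members (30.4%), against 15.8% of all genes tested. Of these, 4 were higher in POLG (8.70%, where 2.96% of all genes were) and 10 were lower (21.7%, where 12.9% were). The member list was made with earlier results of these data known, so shares of members, here and throughout, describe the listed genes. Nothing is read from their distance to the shares over all genes. Fitted log2 differences, POLG minus WT on the log2(FPKM + 1) scale, were below 0 for 27 members (58.7%), against 68.3% of all genes, with a median of -0.045 against -0.087 over all genes tested. At an unadjusted p under 0.05 in limma, 13 members were lower (17.6% of all genes tested were) and 6 higher (4.61% were). Scaling turned this balance, to 3 lower and 11 higher under median ratio scaling (991 and 1023 of all genes tested) and 8 lower and 7 higher under quantile normalization. The 15 genes of glycolysis and lactate, all cytosolic except Ldhd, had a median of 0.10, with 5 below 0 (0.22, with 3 below 0, under median ratio scaling). The 31 genes of pyruvate oxidation, the TCA cycle and the shuttles, some of whose shuttle enzymes are cytosolic, had a median of -0.14, with 22 below 0. Under median ratio scaling this median was -0.020, with 16 below and 15 above 0, and under quantile normalization -0.056, with 19 below.

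**Figure D1:**
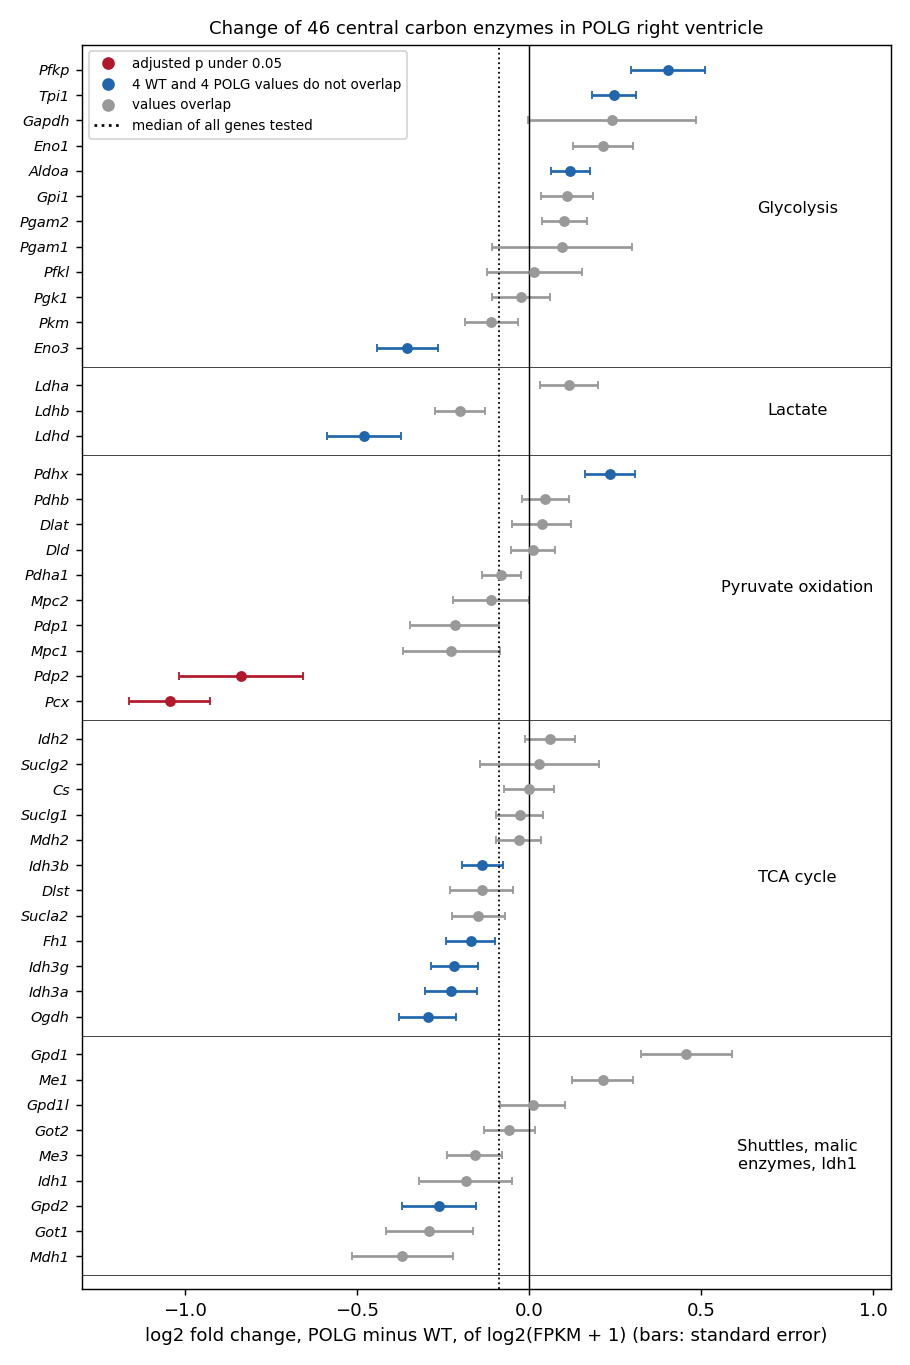
Fitted log2 difference (POLG minus WT, x axis, log2 FPKM + 1) of each of the 46 members (y axis), grouped by role, with bars of 1 standard error from limma on 4 WT and 4 POLG mice, colour for called, not overlapping and overlapping genes, and a dotted line at the median of all genes tested. Most glycolytic enzymes lie right of 0 with Eno3 at -0.35, TCA cycle genes lie mostly left of it, and Pcx at -1.05 and Pdp2 at -0.84 lie farthest left.

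Among the 12 glycolytic enzymes, 9 had a fitted difference above 0 and 3 below, with a median of 0.11 that stayed above 0 under every scaling tried. No row passed the test. Groups did not overlap for 4 of them (33.3%, against 15.8% of all genes tested), Tpi1, Aldoa and Pfkp being higher in POLG (25%, against 2.96%) and Eno3 lower (8.33%, against 12.9%). The most abundant rows were Aldoa, Eno3 and Pgam2, the muscle isoforms of their steps.

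Tpi1, triosephosphate isomerase (chr6:124810586-124814296, − strand, mm10), measured 123, 126, 119.6 and 118 FPKM in WT and 139, 153, 138 and 148 FPKM in POLG. Every POLG library was above every WT library, and the means were 122 ± 3.32 and 144 ± 7.45 FPKM (SD, n = 4 each). The fitted difference was 0.25 ± 0.0632 (SE), with a limma adjusted p of 0.0728. Aldoa, the muscle aldolase and the most abundant glycolytic member (chr7:126795234-126800751, − strand), measured 533, 544, 507 and 495 FPKM in WT and 569.6, 576, 563 and 549 FPKM in POLG. Its groups did not overlap either, although the difference was small, at 0.12 ± 0.0557 (SE) and a limma adjusted p of 0.247. Pfkp, the platelet form of phosphofructokinase (chr13:6579768-6648777, − strand), was low throughout, at 1.61, 1.92, 2.301 and 2.17 FPKM in WT and 2.78, 3.48, 3.09 and 2.51 FPKM in POLG, a difference of 0.40 ± 0.108 (SE) (limma adjusted p = 0.0817). Pfkp shares 748 nt of transcript with Pitrm1 on the other strand, so some of its reads may belong to that gene if strand was not used in counting.

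Eno3, the muscle enolase (chr11:70657202-70662513, + strand), went the other way. It measured 443, 396, 414 and 449.5 FPKM in WT and 296, 318, 336 and 385 FPKM in POLG, with means of 426 ± 25.1 and 334 ± 37.8 FPKM (SD, n = 4 each). All 4 POLG values were below the lowest WT value, and the difference was -0.35 ± 0.0894 (SE) with a limma adjusted p of 0.0713 (0.0523 to 0.191 when 1 library was left out). Eno1, which catalyses the same step in most other tissues, had means of 15.9 FPKM in WT and 18.6 FPKM in POLG (difference 0.21 ± 0.0868 (SE), limma adjusted p = 0.196).

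The remaining glycolytic rows overlapped between groups. Pgam2, the muscle phosphoglycerate mutase, averaged 376 and 404 FPKM in WT and POLG, and its wider-spread partner Pgam1 22.6 and 24.7 FPKM. Pkm, pyruvate kinase, averaged 171 and 159 FPKM, and Pgk1, phosphoglycerate kinase, 117 and 116 FPKM. Gpi1, glucose-6-phosphate isomerase, averaged 73.03 and 78.8 FPKM, and Pfkl, the liver phosphofructokinase, 15.3 and 15.7 FPKM. Fitted differences of these 6 rows ran from -0.11 for Pkm to 0.11 for Gpi1.

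The Gapdh row (chr6:125161715-125166467, − strand), for glyceraldehyde-3-phosphate dehydrogenase, held only 24.9 FPKM in WT and 30.03 FPKM in POLG on average, far under its neighbours in the pathway. The mouse genome carries many processed copies of this gene, and 46 other rows of the table matched Gapdh transcripts at 98% identity or more over at least 100 nt. Of these, 19 had a mean of at least 1 FPKM, and the Gapdh row itself held 1.88% of the summed FPKM of row and copies. The highest were Gm5559 (387 FPKM in WT and 430.1 FPKM in POLG), Gm7336 (222 and 325 FPKM) and Gm2606 (201 and 275 FPKM). How reads that fit several places were shared out is not given in the sources used here.

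With copies and row summed, a choice made after the data were seen, Gapdh measured 1238, 1268, 1299 and 1269.5 FPKM in WT and 1599, 1661, 1630.4 and 1725 FPKM in POLG. The means were 1268 ± 24.9 and 1654 ± 53.5 FPKM (SD, n = 4 each), so that all POLG libraries lay above all WT libraries by several times the spread within a group. The fitted difference was 0.38 ± 0.0489 (SE), with a limma adjusted p of 0.009701 and 0.0224 to 0.0454 when 1 library was left out. Without WT C and WT D the difference was 0.40 and the adjusted p 0.0758, so the call was lost with 2 libraries fewer in one arm. All 19 copies above 1 FPKM had a higher mean in POLG. Of these, 9 were higher without overlap, where 2.96% of all genes tested were. The highest copy, Gm5559, was not among the 9, at 291 to 650 FPKM in WT and 384 to 496 FPKM in POLG. Gm7336 was among them, at 121 to 262 FPKM in WT and 265 to 371 FPKM in POLG. By contrast the Gapdh row alone, at 28.4, 16.6, 27.8 and 26.7 FPKM in WT and 27.4, 33.3, 18.9 and 40.5 FPKM in POLG, overlapped widely (difference 0.24 ± 0.245 (SE), limma adjusted p = 0.598). Copies differ in length, so the sum is an approximate level. Because the copies are near-identical, they may draw on the same reads and do not count as separate observations.

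**Figure D2:**
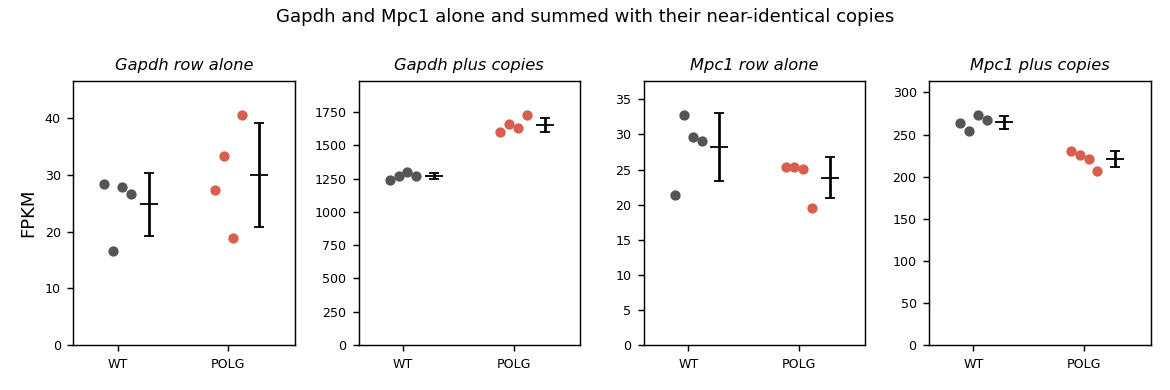
FPKM per library (y axis) of Gapdh and Mpc1, shown for the member row alone and with near-identical copies added, in WT and POLG mice (x axis, 4 points each, with the mean and 1 SD beside them, each panel on its own scale from 0). With copies, Gapdh means are 1268 ± 24.9 and 1654 ± 53.5 FPKM and the groups separate, and Mpc1 means are 264 ± 7.55 and 221 ± 9.94 FPKM.

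Of the lactate dehydrogenases, Ldhb, the heart form and the most abundant of the 46 members, measured 627, 655, 538 and 575 FPKM in WT and 522, 508, 503 and 544 FPKM in POLG. In POLG, 3 values were below the lowest WT value and POLG H was just above it (difference -0.20 ± 0.0738 (SE), limma adjusted p = 0.162). Ldha, the skeletal muscle form, averaged 132 and 143 FPKM (difference 0.12 ± 0.0831 (SE), limma adjusted p = 0.443). Ldhd, the mitochondrial enzyme that oxidises D-lactate (chr8:111623785-111630374, − strand), measured 8.55, 9.15, 6.66 and 7.98 FPKM in WT and 6.32, 5.56, 4.97 and 5.14 FPKM in POLG. Its groups did not overlap, with means of 8.09 ± 1.06 and 5.498 ± 0.598 FPKM (SD, n = 4 each), and the difference of -0.48 ± 0.109 (SE) lay just outside the threshold at a limma adjusted p of 0.0541 (0.0504 to 0.143 when 1 library was left out).

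Both called genes belong to mitochondrial pyruvate metabolism, 2 of its 10 genes where 2.81% of all genes tested were called, one of them (Pdp2) only with all 8 libraries, while the subunits of the pyruvate dehydrogenase complex themselves differed little. Pcx, which carboxylates pyruvate to oxaloacetate and so refills the TCA cycle (chr19:4510472-4621752, + strand), measured 7.37, 7.08, 6.72 and 7.87 FPKM in WT and 3.54, 3.25, 3.16 and 2.17 FPKM in POLG. The lowest WT mouse was well above the highest POLG mouse, and the means were 7.26 ± 0.487 and 3.03 ± 0.595 FPKM (SD, n = 4 each), a decrease of 58.3%. The fitted difference was -1.05 ± 0.118 (SE) with a limma adjusted p of 0.00568, and that p stayed under the threshold without any single library (0.00591 to 0.0256). Without WT C and WT D the difference was -1.04 and the adjusted p 0.0639.

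Pdp2 (chr8:104591451-104599026, + strand) encodes one of the pyruvate dehydrogenase phosphatases, which remove the inhibitory phosphates that pyruvate dehydrogenase kinases put on the E1α subunit. It measured 5.801, 5.53, 3.82 and 4.35 FPKM in WT and 3.02, 1.86, 2.89 and 1.499 FPKM in POLG, with means of 4.88 ± 0.946 and 2.32 ± 0.7504 FPKM (SD, n = 4 each). The groups did not overlap, and the difference was -0.84 ± 0.1804 (SE) at a limma adjusted p of 0.0481. The call did not survive the loss of any single library (0.0627 to 0.114), although the difference stayed between -0.94 and -0.71. Pdp1, the calcium-sensitive phosphatase of the same complex, averaged 6.603 and 5.59 FPKM (difference -0.22 ± 0.1298 (SE), limma adjusted p = 0.357).

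The promoters of the called genes are printed because Pcx and Pdp2 were the members that moved most and in the same direction. They are RefSeq sequences on GRCm38.p6 (mm10), from 250 bases before to 50 after the annotated start and 5′ to 3′ on the gene's strand. Capitals mark matches to ACGTG on either strand. ACGTG is a form of the core of the hypoxia response element, and whether any factor binds these matches was not tested. RefSeq lists 2 starts for Pcx, and the table does not separate them. The first Pcx promoter is chr19:4510222-4510521 and the second chr19:4594069-4594368, and the Pdp2 promoter is chr8:104591222-104591521, all on the + strand.
Pcx first promoter: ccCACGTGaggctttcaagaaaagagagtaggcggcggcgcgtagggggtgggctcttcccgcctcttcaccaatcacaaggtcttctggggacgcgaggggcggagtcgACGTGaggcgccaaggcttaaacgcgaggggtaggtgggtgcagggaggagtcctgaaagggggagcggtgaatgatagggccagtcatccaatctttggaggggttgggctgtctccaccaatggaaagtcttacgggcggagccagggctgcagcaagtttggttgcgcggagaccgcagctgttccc
Pcx second promoter: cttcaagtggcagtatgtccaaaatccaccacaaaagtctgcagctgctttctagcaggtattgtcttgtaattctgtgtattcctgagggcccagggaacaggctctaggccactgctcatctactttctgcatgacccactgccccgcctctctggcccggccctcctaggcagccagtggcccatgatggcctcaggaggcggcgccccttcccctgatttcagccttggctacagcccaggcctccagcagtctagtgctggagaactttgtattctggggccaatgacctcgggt
Pdp2 promoter: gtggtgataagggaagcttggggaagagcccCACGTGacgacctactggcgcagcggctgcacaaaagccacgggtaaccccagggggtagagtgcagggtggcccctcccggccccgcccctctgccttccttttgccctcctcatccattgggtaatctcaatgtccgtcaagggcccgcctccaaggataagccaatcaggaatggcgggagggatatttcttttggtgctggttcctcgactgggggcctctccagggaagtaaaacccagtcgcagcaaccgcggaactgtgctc
The first Pcx promoter held 3 matches and the Pdp2 promoter 2, where a CACGTG counts once on each strand, and the second Pcx promoter held none.

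Promoters of 43 of the 46 members were found, and 16 of them (37.2%) held ACGTG on either strand, against 21.8% of 27025 genes with a RefSeq promoter of the same length. TNAAGGTCA, the element of the estrogen-related receptors, which act on genes of oxidative metabolism in heart, was present in 1 of 43 (2.33%, in Tpi1) and in 1.43% of all. TGATGNAA, the composite element of C/EBP and ATF factors, was present in 2 of 43 (4.65%, in Got1 and Me3) and in 4.51% of all. These shares are descriptions of the letters in these windows and carry no test.

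Within the pyruvate dehydrogenase complex, Pdha1, the catalytic E1α subunit and the most abundant gene of the group, measured 241, 253, 235 and 243 FPKM in WT and 229.7, 239.7, 221 and 228 FPKM in POLG. The POLG values were shifted a little down and overlapped with WT (difference -0.081 ± 0.0575 (SE), limma adjusted p = 0.435). Pdhb (E1β), Dlat (E2) and Dld (E3) had differences of 0.046, 0.036 and 0.010, each smaller than its standard error. Pdhx, which holds E3 in the complex (chr2:103021075-103073513, − strand), was the exception. It measured 20.4, 20.9, 19.1 and 20.2 FPKM in WT and 23.8, 25.3, 24.8 and 21.8 FPKM in POLG, higher in every POLG library, with a difference of 0.23 ± 0.0729 (SE) (limma adjusted p = 0.117). Under median ratio scaling and quantile normalization the adjusted p of Pdhx was 0.0235 and 0.031.

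The pair Mpc1 and Mpc2 forms the carrier that brings pyruvate across the inner mitochondrial membrane. Mpc1 (chr17:8282904-8297661, + strand) averaged 28.2 and 23.8 FPKM and Mpc2 25.4 and 23.5 FPKM in WT and POLG, both with overlap. A copy, Mpc1-ps, matched Mpc1 at 99.7% over 330 nt and held 236 FPKM in WT and 197 FPKM in POLG, so that the Mpc1 row was 10.7% of the sum. Row and copy together measured 263, 255, 273 and 267 FPKM in WT and 230.1, 225, 220.4 and 207 FPKM in POLG. Here the groups did not overlap, with a decrease of 16.5% and a difference of -0.26 ± 0.0598 (SE), and the limma adjusted p was 0.0555 (0.0376 to 0.27 over the alternatives).

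In the TCA cycle, 10 of 12 genes had a fitted difference below 0 and 2 above, none passed the test, and the median was -0.14 (-0.024 under median ratio scaling). Groups did not overlap for 5 of 12 (41.7%), all lower in POLG, where 12.9% of all genes were. These 5 were the 3 subunits of NAD-dependent isocitrate dehydrogenase, Ogdh and Fh1. At an unadjusted p under 0.05 in limma, 5 of the 12 were lower (17.6% of all genes tested were). Under median ratio scaling 0 of the 12 were, against 991 of all genes tested. Over the alternatives, the differences shrank to as little as -0.11 for Idh3a, -0.020 for Idh3b, -0.10 for Idh3g, -0.18 for Ogdh and -0.054 for Fh1.

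NAD-dependent isocitrate dehydrogenase is an oxidising, regulated step of the cycle. Its catalytic subunit Idh3a (chr9:54586334-54604661, + strand) measured 80.7, 79.5, 90.4 and 90.3 FPKM in WT and 69.4, 74.4, 77.01 and 69.5 FPKM in POLG (difference -0.23 ± 0.0749 (SE), limma adjusted p = 0.131). Idh3b (chr2:130279309-130284547, − strand) measured 134, 138, 131 and 144 FPKM in WT and 123, 122, 125 and 126 FPKM in POLG (difference -0.14 ± 0.05902 (SE), limma adjusted p = 0.217). Idh3g (chrX:73778963-73786897, − strand) measured 74.9, 79.4, 75.5 and 78.1 FPKM in WT and 66.6, 60.5, 66.9 and 70.5 FPKM in POLG (difference -0.22 ± 0.0685 (SE), limma adjusted p = 0.119). On FPKM as deposited, all 3 subunits were thus lower in each POLG mouse than in any WT mouse. The amounts did not pass the test over all genes.

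Ogdh, the E1 subunit of the 2-oxoglutarate dehydrogenase complex, had the largest difference of the cycle (chr11:6291633-6356642, + strand). It measured 356, 353, 306 and 310.2 FPKM in WT and 256, 298, 271 and 253 FPKM in POLG, with means of 331 ± 26.8 and 269.6 ± 20.7 FPKM (SD, n = 4 each) and a difference of -0.30 ± 0.0826 (SE) (limma adjusted p = 0.0906). The lowest WT libraries were WT C and WT D, and they still lay above every POLG library. Dlst, the E2 subunit of the same complex, averaged 22.3 and 20.1 FPKM, with overlap. Fh1, fumarase (chr1:175600374-175625635, − strand), measured 84.8, 82.7, 77.1 and 92.04 FPKM in WT and 75.1, 73.4, 76.8 and 72.8 FPKM in POLG, where WT C and POLG G came close to each other (difference -0.17 ± 0.0711 (SE), limma adjusted p = 0.207).

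**Figure D3:**
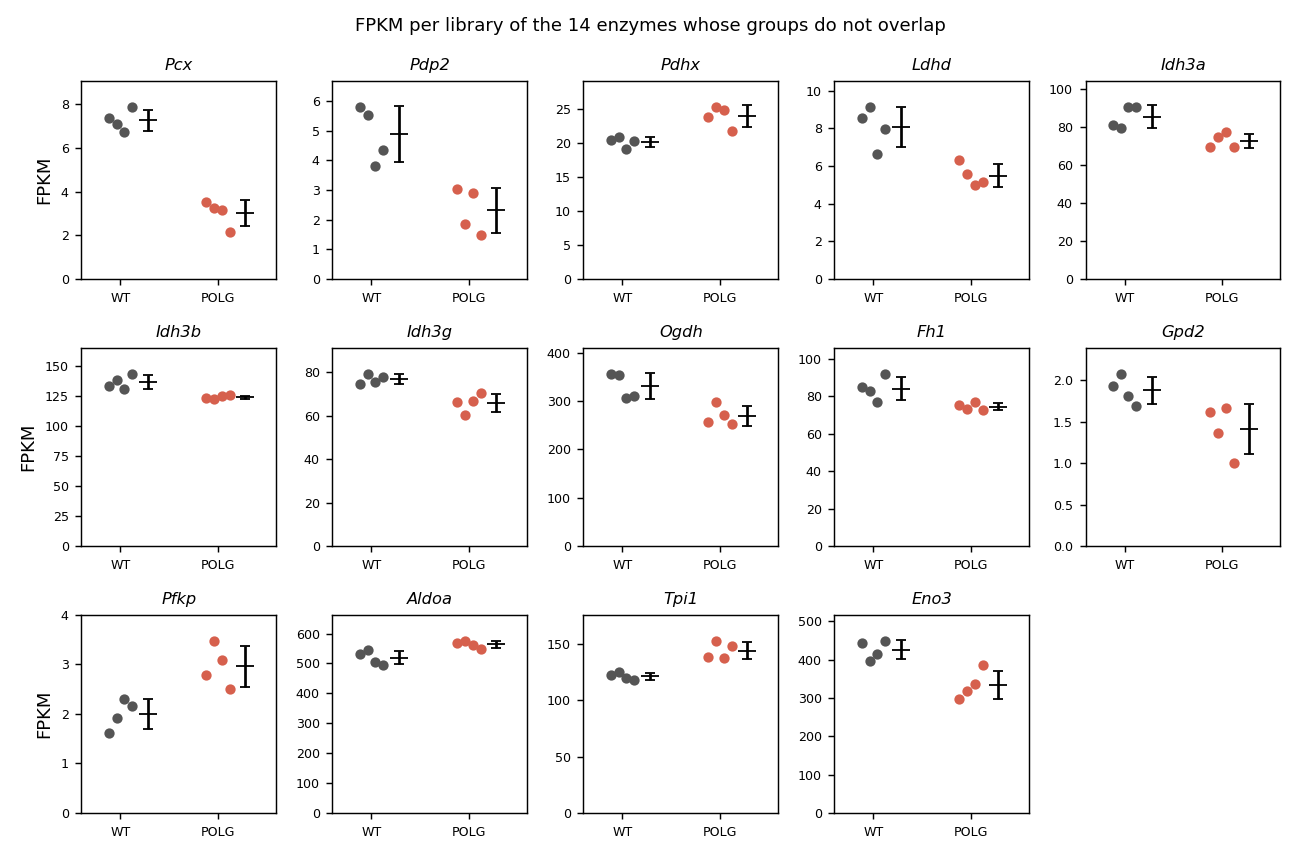
FPKM of each library (y axis, from 0, its own scale in each panel) for the 14 members whose 4 WT and 4 POLG values do not overlap, with 1 point per mouse by group (x axis) and the mean with 1 SD beside the points. Pdhx, Pfkp, Aldoa and Tpi1 are higher in POLG and the other 10 are lower, Pcx falling to 0.417 of its WT mean.

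The other TCA cycle genes overlapped between groups. Idh2, the NADP-dependent mitochondrial isocitrate dehydrogenase and the most abundant of the cycle, measured 499, 523, 442 and 470.3 FPKM in WT and 513, 508, 466 and 528 FPKM in POLG, with no common shift (difference 0.060 ± 0.0724 (SE)). Cs, citrate synthase, averaged 184 ± 13.04 and 183 ± 9.51 FPKM (SD, n = 4 each), a difference of -0.0014 ± 0.0735 (SE) (limma adjusted p = 0.994). This is an RNA level, and mitochondrial content was not measured here. Mdh2, mitochondrial malate dehydrogenase, averaged 233 and 228 FPKM. Of the succinyl-CoA ligase subunits, Suclg1, which is shared by both forms of the enzyme, averaged 54.2 and 53.1 FPKM. Sucla2, of the ADP-forming enzyme, averaged 85.5 and 77.3 FPKM, and Suclg2, of the GTP-forming one, 16.9 and 17.7 FPKM.

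None of the 9 shuttle and malic enzyme genes passed the test, 6 had a difference below 0 and 3 above, and the median was -0.16. The malate-aspartate shuttle carries electrons of cytosolic NADH into mitochondria. Its cytosolic malate dehydrogenase Mdh1, the most abundant gene of the group, measured 319, 468, 432 and 349 FPKM in WT and 250.4, 355, 287 and 317 FPKM in POLG. The means were 392 and 302 FPKM, WT alone ranged from 319 to 468 FPKM, and the groups overlapped (difference -0.37 ± 0.147 (SE), limma adjusted p = 0.187). The cytosolic aspartate aminotransferase Got1 averaged 225 and 181 FPKM (difference -0.29 ± 0.127 (SE), limma adjusted p = 0.221), and the mitochondrial Got2 167 and 161 FPKM.

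In the glycerol-3-phosphate shuttle, which also moves these electrons, the cytosolic Gpd1 and the mitochondrial Gpd2 had differences of opposite sign. Gpd1 measured 15.9, 16.8, 23.95 and 18.4 FPKM in WT and 23.9, 27.5, 23.4 and 28.9 FPKM in POLG, a difference of 0.46 ± 0.132 (SE) (limma adjusted p = 0.1001). Only WT C reached into the POLG range. Gpd2 (chr2:57237635-57370719, + strand) had the lowest level of the 46 members and measured 1.93, 2.08, 1.81 and 1.697 FPKM in WT and 1.62, 1.37, 1.66 and 0.9995 FPKM in POLG, lower in every POLG mouse (difference -0.26 ± 0.107 (SE), limma adjusted p = 0.198). Gpd1l, a relative of Gpd1, averaged 12.2 FPKM in WT and 12.2 FPKM in POLG. Of the NADPH-producing enzymes, cytosolic Me1 averaged 24.9 and 29.1 FPKM, mitochondrial Me3 4.196 and 3.64 FPKM, and Idh1, the cytosolic isocitrate dehydrogenase, 14.1 and 12.4 FPKM, all with overlap.

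To compare partners of one reaction within each mouse, the log2 ratio of 10 pairs of isoforms or compartment partners was tested between groups by exact two-sided permutation. For 3 pairs the groups did not overlap, which gave the smallest p that 4 against 4 mice can reach (0.0286, exact permutation), or 0.0952 after Benjamini-Hochberg adjustment over the 10 pairs. The FPKM ratio of Eno1 to Eno3 was 0.03497, 0.0368, 0.0409 and 0.0368 in WT and 0.0621, 0.0604, 0.0606 and 0.0427 in POLG. Eno3 thus remained by far the major enolase in both groups, with a log2 ratio that was 0.57 higher in POLG. The ratio of Gpd1 to Gpd1l was 1.46, 1.54, 1.75 and 1.404 in WT and 1.87, 2.13, 1.999 and 2.54 in POLG, a log2 difference of 0.45. The ratio of Me1 to Me3 was 5.598, 6.15, 6.68 and 5.44 in WT and 8.76, 8.48, 8.07 and 6.69 in POLG, a log2 difference of 0.37. FPKM is scaled to transcript length, so these ratios compare the genes per length. All 10 ratios use the member rows without their near-identical copies. Over the 8 libraries, copies held 8.27 FPKM beside 17.2 FPKM on the Eno1 row and 10.9 beside 17.3 FPKM for Suclg2. For Pgam1 they held 6.02 beside 23.6 FPKM, for Got2 29.2 beside 164 FPKM, and for Mpc1 217 beside 26.0 FPKM.

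The ratio of Ldha to Ldhb, of the muscle over the heart form, was 0.196, 0.197, 0.2404 and 0.254 in WT and 0.253, 0.304, 0.2999 and 0.247 in POLG. Here WT D had a ratio above those of POLG E and POLG H, and the log2 difference was 0.32 (exact permutation p = 0.0857, adjusted 0.214). When 1 library was left out, the difference ran from 0.26 to 0.38 (adjusted exact permutation p from 0.143 to 0.333). Only without WT D did the groups not overlap, and there the difference was 0.38 (exact permutation p = 0.0286, adjusted 0.143). Without WT C and WT D, the libraries with atrial RNA, they did not overlap either and the difference was 0.48 (exact permutation p = 0.0667, the smallest that 2 against 4 mice can give, adjusted 0.167). The other pairs overlapped too, with log2 differences of -0.34 for Mdh1 to Mdh2, -0.25 for Idh1 to Idh2, -0.23 for Got1 to Got2, 0.18 for Suclg2 to Sucla2, -0.11 for Mpc1 to Mpc2 and -0.0072 for Pgam1 to Pgam2. When 1 library was left out, the difference ran from -0.44 to -0.26 for Mdh1 to Mdh2, from -0.36 to -0.13 for Idh1 to Idh2, from -0.31 to -0.13 for Got1 to Got2, from 0.012 to 0.29 for Suclg2 to Sucla2, from -0.22 to -0.035 for Mpc1 to Mpc2 and from -0.19 to 0.11 for Pgam1 to Pgam2, so single libraries set much of their size.

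**Figure D4:**
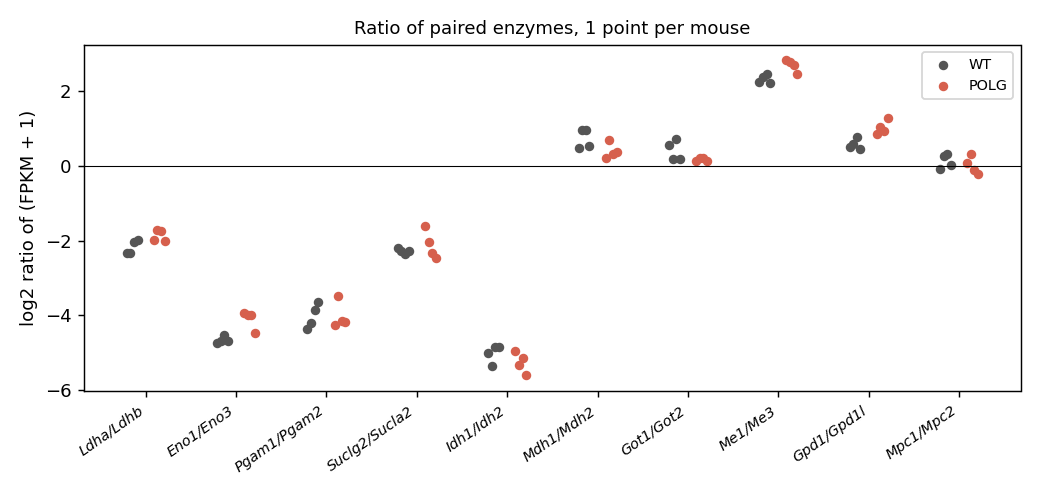
Log2 ratio of FPKM + 1 (y axis) for the 10 enzyme pairs (x axis), 1 point per mouse in WT and POLG. Eno1/Eno3, Gpd1/Gpd1l and Me1/Me3 are higher in every POLG mouse, by 0.57, 0.45 and 0.37 on average, and the other 7 pairs overlap.

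A list of 36 other genes of these pathways gives the surroundings of the members, and 30 of them reached 1 FPKM. Of the 30, 4 fell and 2 rose (20%, where 2.81% of all genes tested were called), and 16 did not overlap between groups (53.3%, where 15.8% of all genes did not), 5 higher and 11 lower. The list was put together with earlier results of these data known, so these shares describe the listed genes and nothing is read from their distance to the shares over all genes. The genes that fell act at glucose entry, at the control of phosphofructokinase and in succinate oxidation. Slc2a4, the insulin-responsive glucose transporter GLUT4, measured 111, 93.3, 107 and 111 FPKM in WT and 60.1, 63.1, 62.7 and 49.7 FPKM in POLG, a difference of -0.83 ± 0.0979 (SE) at a limma adjusted p of 0.00652 (0.0103 to 0.0318 when 1 library was left out). Every POLG library was far below every WT library. Hk2, the insulin-regulated hexokinase, fell from 41.7 ± 3.89 to 22.3 ± 4.83 FPKM (SD, n = 4 each), a difference of -0.89 ± 0.144 (SE) (limma adjusted p = 0.0231, 0.0172 to 0.0768 when 1 library was left out). Pfkfb1, which makes and breaks down the phosphofructokinase activator fructose-2,6-bisphosphate, fell from 3.84 to 1.94 FPKM (difference -0.71 ± 0.153 (SE), limma adjusted p = 0.0481). Sdhb, the iron-sulfur subunit of succinate dehydrogenase, fell from 268 to 221 FPKM (difference -0.28 ± 0.05896 (SE), limma adjusted p = 0.0473).

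Pdk1, a kinase that switches the pyruvate dehydrogenase complex off and so acts against Pdp2, rose from 15.8 ± 2.08 to 23.2 ± 2.02 FPKM (SD, n = 4 each), a difference of 0.53 ± 0.107 (SE) (limma adjusted p = 0.0423). Pdk4 and Pdk2, kinases of the same complex, were more abundant, averaging 179 and 120 FPKM over the 8 libraries against 19.5 FPKM for Pdk1. Neither Pdk4 nor Pdk2 passed the test, and for both the groups overlapped. Bpgm, bisphosphoglycerate mutase, rose from 4.96 to 7.71 FPKM (difference 0.55 ± 0.116 (SE), limma adjusted p = 0.0468). Bpgm is best known from red blood cells, and the 5 erythroid markers moved with it, with sums of 889.8 to 1956 FPKM in WT and 2722 to 4885 FPKM in POLG; their part in its rise was not tested. When 1 library was left out, the limma adjusted p ran over 0.0494 to 0.1196 for Pfkfb1, 0.0742 to 0.138 for Sdhb, 0.0586 to 0.122 for Pdk1 and 0.0368 to 0.1296 for Bpgm, so each of these calls depends on having all 8 libraries or nearly so. Without WT C and WT D, none of the 6 calls remained (limma adjusted p from 0.0844 for Slc2a4 to 0.23 for Bpgm), with directions as before.

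Of the listed genes that did not overlap without passing the test, those lower in POLG were Pfkm (-0.23), Pfkfb2 (-0.73), Slc2a1 (-0.53), Sdha (-0.21), Sdhc (-0.26), Slc25a11 (-0.13) and Glud1 (-0.23), as log2 differences. Pfkm is the muscle phosphofructokinase, Pfkfb2 the heart form of the bifunctional regulator, and Slc2a1 the basal glucose transporter GLUT1. Sdha and Sdhc are further subunits of succinate dehydrogenase, Slc25a11 is the 2-oxoglutarate carrier of the malate-aspartate shuttle, and Glud1 is glutamate dehydrogenase. Those higher in POLG included Ogdhl (0.70) and Fbp2 (0.59). Ogdhl is a close relative of Ogdh with an opposite sign here, at 27.5 and 45.6 FPKM in WT and POLG, and Fbp2 is the muscle fructose-1,6-bisphosphatase.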

How the data were processed

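Poly(A) RNA libraries (TruSeq Stranded, paired-end) of the right ventricle of 4 WT and 4 POLG mice were made by the authors, who mapped reads to mm10 with HISAT2 and assembled and normalized them in StringTie. Per the processing notes of the submitters, cutadapt and FastQC were used too, with versions not given in the sources used here. FPKM per gene were deposited for 55421 rows, with 0 written as 0.0001 and set back to 0 here. Columns holding the authors' ratio of means and its log2 were not used, and 0 columns belong to other samples. FPKM keep no raw counts: only 36% to 39.5% of low values per library came within 2% of a whole number of fragments, so no count test was run and depth is approximate. Precision thus rests on the 4 mice per group.

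Differences were fitted in limma 3.58.1 (R 4.3.3, eBayes with trend) on log2(FPKM + 1) for the 10236 genes that averaged 1 FPKM or more, which understates the change of low genes, with Benjamini-Hochberg adjustment over all of them and a threshold of 0.05. The fit was tested on simulated data with known changes. The simulated noise was independent for each gene and library, with no scaling differences between libraries. It therefore cannot show how scaling affects the calls. Groups were taken from the genotype label. Enzyme pairs were compared by exact two-sided permutation in Python 3.11.15. Alternatives were other pseudocounts, filters, scalings and limma settings, leaving out each library, and leaving out WT C and WT D. Copies were found with BLAST 2.17.0 among GENCODE vM21 transcripts, leaving out genes that overlap the member, and coordinates are GRCm38 from that annotation. Of the 55421 gene IDs, 54587 matched it.

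The members, the 36 other pathway genes and the marker lists were chosen with earlier results of these data known. Per-library values are given for members called or not overlapping and for the most abundant member of each role. Gpd1, Gapdh, Mpc1 with its copy and Slc2a4 were added to these after their values were seen. Of the other pathway genes, those called or not overlapping are named, except 1 that is counted and not reported here.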

Additional observations from a re-analysis of the deposited data

Results flagged for a closer look

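In 7 of 96 groups of 4 libraries, 1 library lay far from the other 3, where chance alone gives about 1 in 20 groups. Pfkl in WT C was 14.7 FPKM, where the other WT libraries held 15.5 to 15.6 FPKM. Gapdh in WT B was 16.6 FPKM against 26.7 to 28.4 FPKM, for the row without its copies. Pgam2 in POLG E was 374 FPKM against 412 to 418 FPKM. Mpc1 in POLG H was 19.5 FPKM against 25.1 to 25.4 FPKM, again for the row without its copy. Pdp1 in WT D was 7.71 FPKM against 6.18 to 6.28 FPKM. Me1 in WT B was 27.9 FPKM against 23.7 to 24.1 FPKM. Got2 in POLG H was 179 FPKM against 154 to 155 FPKM. None of these 7 members passed the test as a row.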

How the results depend on the processing

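No paired analysis was possible because the labels carry library letters A to H and no replicate numbers shared between WT and POLG. The count of members called lower, 2 as reported, was 1 with a pseudocount of 0.1 FPKM, with no filter, under median ratio scaling, under quantile normalization and without the trend, 5 with library weights, 1 in every fit with 1 library left out and 0 without WT C and WT D. The count called higher, 0 as reported, was 2 under median ratio scaling, 3 under quantile normalization and 1 with library weights. By role, calls higher were 1, 2 and 1 in glycolysis under median ratio scaling, quantile normalization and library weights, and 1 in pyruvate oxidation under each of the first pair. Calls lower were 1 in glycolysis when scaled to nuclear-encoded genes and with library weights, 1 in lactate with a filter at 5 FPKM and with library weights, and 1 in the TCA cycle with library weights. In pyruvate oxidation, calls lower were 1 with a pseudocount of 0.1 FPKM, no filter, a filter at 5 FPKM (which removes Pdp2), median ratio scaling, quantile normalization or no trend, 1 in every fit with 1 library left out and 0 without WT C and WT D. Median log2 differences over all members were -0.092 when scaled to nuclear-encoded genes, 0.072 under median ratio scaling, 0.00092 under quantile normalization and -0.081 to -0.036 when 1 library was left out. Under median ratio scaling the medians were 0.22 for glycolysis, -0.085 for lactate, 0.019 for pyruvate oxidation, -0.024 for the TCA cycle and -0.064 for shuttles, where the median over all genes moved from -0.087 to 0.0047. Under quantile normalization they were -0.097 for lactate, -0.022 for pyruvate oxidation, -0.094 for the TCA cycle and -0.056 for shuttles. The lactate median was -0.30 without WT C and WT D, the TCA cycle median -0.18 when scaled to nuclear-encoded genes and -0.15 to -0.11 when 1 library was left out, and the shuttle median -0.088 with a pseudocount of 5 FPKM, -0.059 with a filter at 5 FPKM and -0.096 with library weights. The cause of these shifts was not tested.

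Some small differences changed sign. Under median ratio scaling Pgk1 was 0.093, Pkm 0.0061, Mpc2 0.0013, Pdha1 0.036, Cs 0.12, Suclg1 0.087, Mdh2 0.087 and Got2 0.058. Under quantile normalization Pgk1 was 0.027, Cs 0.0098, Suclg1 0.037 and Mdh2 0.044. When scaled to nuclear-encoded genes Pfkl was -0.0304, Pdhb -0.0019, Dlat -0.012, Dld -0.037, Suclg2 -0.016 and Gpd1l -0.035. Library weights gave 0.0076 for Pgk1 and 0.00054 for Cs. Without WT C and WT D, Pfkl was -0.0035, Pdhb -0.0052, Dlat -0.027, Cs 0.083, Idh2 -0.023, Suclg1 0.036, Suclg2 -0.02001 and the log2 ratio of Pgam1 to Pgam2 0.25. Adding copies, which was chosen after seeing the data, gave -0.0304 for Suclg2. When 1 library was left out, Pfkl ran from -0.094 to 0.12, Pgk1 from -0.069 to 0.029, Pgam1 from -0.094 to 0.21, Dlat from -0.017 to 0.085, Dld from -0.015 to 0.044, Cs from -0.038 to 0.036, Suclg2 from -0.15 to 0.15, Gpd1l from -0.036 to 0.065 and the Pgam1 to Pgam2 ratio from -0.19 to 0.11. Exact permutation over all genes cannot pass the threshold with 4 mice a group, its smallest adjusted p being 0.18. Pcx kept its call in 18 of 20 alternatives, Pdp2 in 4 of 19 and Gapdh with copies in 18 of 19.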
